A study of Macaca mulatta with 16 samples.

Results

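Memory CD8+ T cells of 2 rhesus macaques were profiled by ATAC-seq before and after dosing with 2-hydroxypropyl-beta-cyclodextrin, and the 4 peak lists of these cells, out of 16 lists in the study, are described here. They were chosen by their labels alone, 1 list per animal at each time. ATAC-seq cuts accessible DNA with a transposase, so that stretches rich in cuts mark open chromatin. Both animals were labelled healthy rhesus macaques, and neither age nor sex was stated in the sources at hand. Before treatment no agent was given. Treated animals received 15% (w/w) Kleptose HBP under the skin at 1 ml/kg each day for up to 120 days. Each library came from 10000 cells sorted from peripheral blood, amplified for 11 to 15 cycles. The other 12 lists, from naive CD4+, memory CD4+ and naive CD8+ T cells of the same animals at the same times, served only for comparison. No untreated animal was sampled at both times, so the effects of treatment and of elapsed time cannot be told apart.

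CD8+ T cells kill infected or transformed cells. Memory CD8+ cells descend from cells that have met their antigen, and they keep regulatory DNA near effector and memory genes accessible, which lets them respond faster than naive cells. Cyclodextrins are rings of glucose units that hold cholesterol in their cavity. Cholesterol in the T cell membrane is known to affect clustering of the antigen receptor and signalling.

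The lists held 40316 and 40744 peaks before and 39426 and 39519 after treatment in animals 1 and 2. Peaks overlapping by 1 bp or more in any of the 16 lists were joined, which gave 55449 regions, and a region counted as open in each list that had a peak there. The strength of a peak is given as the percentile of its area score, the score of the authors' peak caller, because scores of different lists cannot be compared directly. Depth was unknown, so the absence of a peak does not show that the region was closed. Positions are in rheMac10, and the genes at them are not given, since no annotation of that build was used.

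The peak sets carried the labelled identity at both times. Of 1353 regions open in all 4 memory CD4+ lists and no naive CD4+ list, 80.3% and 71.7% were open in memory CD8+ cells of animals 1 and 2 before treatment, and 73.9% and 69.3% after. Of 991 regions with the reverse pattern, 6.16% and 12.8% were open before and 8.98% and 10.5% after. The memory regions were thus open far more often than the naive regions in each of the 4 lists. Of 735 regions open in all 4 naive CD8+ lists and no naive CD4+ list, 62.0% and 66.8% were open before and 64.5% and 65.6% after. Regions of naive CD4+ cells missing from naive CD8+ cells, 764 in number, were open in 34.4% and 28.0% of cases before and 31.0% and 27.1% after. None of these lists was chosen with memory CD8+ libraries.

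Few regions opened or closed in both animals. Of 43508 regions open in any of the 4 memory CD8+ lists, 280 (0.644%) had a peak in both lists after treatment and in neither before. Another 331 (0.761%) were lost in both animals. A larger number, 764 (1.76%), moved in opposite directions, 569 gained in animal 1 and lost in animal 2 and 195 the other way round. Most regions, 30796 or 70.8%, were open in all 4 lists. A further 1281 were open in animal 1 alone at both times and 1374 in animal 2 alone at both times. An exact two-sided sign-flip test over 2 pairs cannot go below 0.5, so these counts were not tested. The balance of gains and losses depended on the threshold: with peaks of summit −log10 p of at least 3.42 there were 132 gained and 465 lost, and with lists of equal length 379 and 240.

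**Figure D1:**
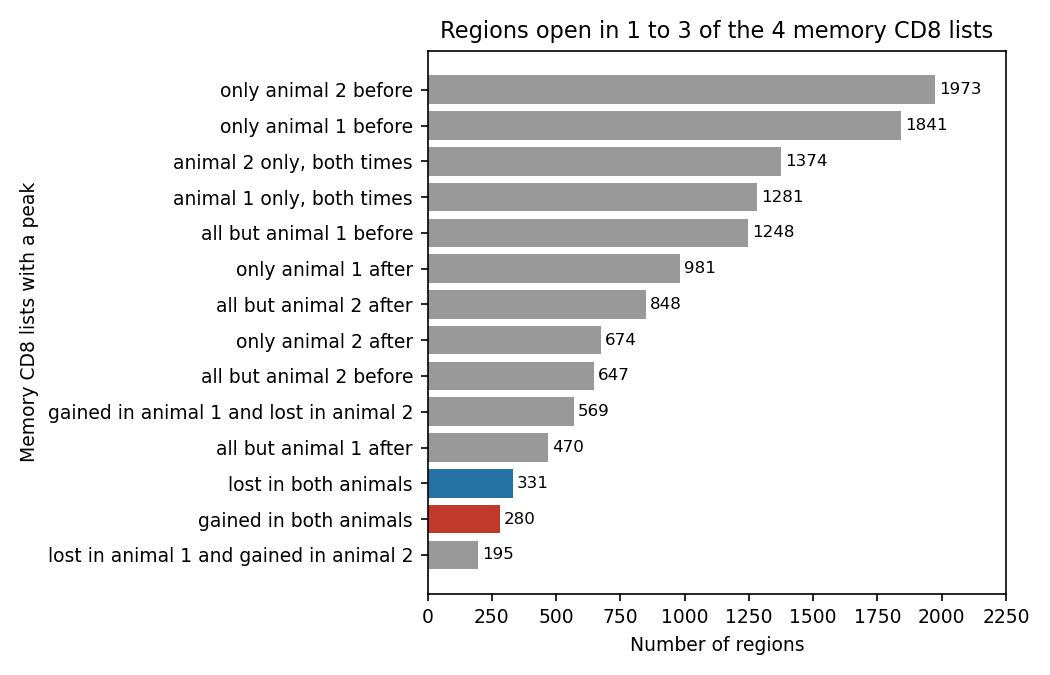
Number of regions (horizontal axis) for each pattern of presence in the 4 memory CD8+ lists, leaving out the 30796 regions open in all 4. Regions gained in both animals (red, 280) and lost in both (blue, 331) are fewer than those open in 1 animal alone at both times (1281 and 1374).

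Gains and losses were largely changes among weak peaks. In animal 1, 3078 regions were gained and 2837 lost, and in animal 2, 1796 were gained and 3721 lost. Among peaks up to the 10th percentile of their list before treatment, 40.4% in animal 1 and 59.0% in animal 2 had no counterpart after. Between the 25th and 50th percentile these shares were 4.94% and 3.41%. Above the 75th percentile none of the 9806 regions of animal 1 and none of the 10031 of animal 2 was lost. Seen from the lists after treatment, 49.0% and 35.1% of the weakest peaks were new in animals 1 and 2, and above the 75th percentile 0 of 9692 and 0 of 9644 were. The animals differed in direction, with more weak peaks appearing in animal 1 and more disappearing in animal 2.

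**Figure D2:**
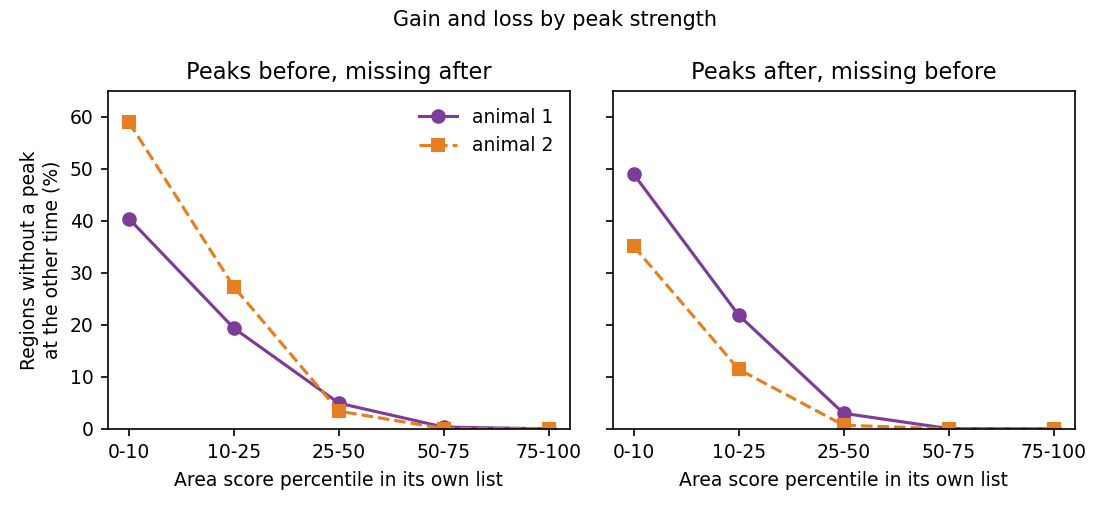
Share of regions without a peak at the other time (vertical axis, percent) by the percentile of their area score in the list where they were open (horizontal axis), for peaks present before (left) and after (right). Circles are animal 1 and squares animal 2; both fall from 35.1 to 59.0% in the weakest class to 0% in the strongest.

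Regions gained in both animals had a median area score at the 7.89th percentile of the lists after treatment (10th to 90th percentile of the members, 1.26 to 19.5). Those lost in both stood at the 9.47th percentile before treatment (1.55 to 25.1). Regions open in all 4 lists stood at the 59.9th. Gained regions covered a median of 584.5 bp and lost ones 505.5 bp in the lists where they were open, against 1460 bp for regions open in all 4. Only 1 gained and 3 lost regions lay at or above the 25th percentile in both lists that held them. Of the gained regions 57.5% lay within 10 kb of a region open in all 4 lists, of the lost regions 54.1% and of those moving in opposite directions 56.4%. These shares lay close together.

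The strongest regions gained in both animals were of modest rank and differed in which other T cells shared them. The one at or above the 25th percentile in both lists lay on chromosome 19 at 4266011 to 4267860, without a peak before and at the 33.3rd and 25.8th percentile after in animals 1 and 2, and was open in 1 of the 12 other libraries, in a memory CD4+ pair that lost it. On chromosome 2 at 106246344 to 106249650 the values after were 34.5 and 24.5, and the 2 other open libraries were of memory CD4+ cells and had both gained the peak. On chromosome 5 at 156858407 to 156859906 they were 34.1 and 24.2, with no peak in any other library. A region on chromosome 15 at 61730009 to 61731589, at 30.6 and 22.9, was open in all 8 CD4+ libraries and in no naive CD8+ library. On chromosome 7 at 167817729 to 167819218 the percentiles were 35.3 and 16.7, and again only 2 memory CD4+ libraries, both after a gain, shared it. In each of the 5 regions the peak ranked higher in animal 1 than in animal 2.

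Lost regions reached higher ranks than gained ones. The highest by its mean over both lists, on chromosome 8 at 78993405 to 78995122, stood at the 57.2nd and 21.8th percentile before treatment and had no peak after, although all 12 libraries of the other populations were open there. A second one, on chromosome 7 at 165417755 to 165420343, had values of 48.2 and 21.3 before and was likewise open in all 12 others. The remaining 3 had no peak in any other population at either time, so that among all 16 lists they were seen only in memory CD8+ cells before treatment. They lay on chromosome 12 at 115257328 to 115258007 (41.6 and 24.5 before), chromosome 9 at 89065130 to 89065858 (31.6 and 31.5) and chromosome 5 at 76960012 to 76961367 (33.9 and 26.8). Of the 4997 regions open in some memory CD8+ list and in none of the 12 other libraries, 64 (1.28%) were gained in both animals and 2.24% were lost in both, against 0.644% and 0.761% of all regions. More of these 4997, 254 in number, moved in opposite directions in the 2 animals, as did 764 (1.76%) of all 43508 regions. Shared change was thus not the only kind raised in this class, nor was it particular to it. Of 11592 regions open in some but not all of the 12, outside the memory and CD8 patterns defined below, 1.55% were gained and 1.41% lost. Of 25822 regions open in all 12 other libraries, 0.128% were gained and 0.155% lost in both animals.

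Neither kind of change was gathered in large neighbourhoods. Of the gained regions 266 had no other gained region within 50 kb, and of the lost regions 319 had no other lost one. No group held more than 2 regions. The first such pairs along the genome were on chromosome 1, gained at 123715361 to 123741662 and lost at 9168299 to 9179966. Regions open in 1 to 3 of the 4 lists had been gained in both animals in 2.20% and lost in both in 2.60% of cases over all chromosomes. On chromosome 19, 18 of 459 were gained (3.92%) and 8 lost (1.74%), and on chromosome X 12 of 395 were gained (3.04%) and 6 lost (1.52%).

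Regions that changed in memory CD8+ cells were read in the 6 before-after pairs of the other populations, whose libraries had no part in choosing them. Regions gained in memory CD8+ cells were open in 45.7% before and 50.7% after in naive CD4+ cells of animal 1 and in 46.8% and 47.5% in animal 2. In memory CD4+ cells the shares were 46.8% and 57.9% in animal 1 and 52.5% and 56.8% in animal 2. In naive CD8+ cells they were 28.2% and 35.7% in animal 1 and 44.6% at both times in animal 2. The share was therefore higher after treatment in 5 of the 6 pairs and equal in 1. For regions lost in memory CD8+ cells it was lower after in 4 pairs and higher in memory CD4+ cells (40.5% to 48.0%) and naive CD8+ cells (19.9% to 21.5%) of animal 1.

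The difference between the gained and the lost regions grew in all 6 pairs, by 5.22 ± 2.29 percentage points (SD, n = 6 pairs). The exact sign-flip test, two-sided, gave p = 0.0312, the smallest that 6 pairs allow. Benjamini-Hochberg adjustment gave p = 0.0625 over the 2 main readouts of this exact test and p = 0.156 over all 10 computed, neither of which passes 0.05. The 6 pairs came from the same 2 animals. Gained regions alone changed by 4.76 ± 4.16 points and lost ones by -0.453 ± 4.32 points (SD, n = 6), and other regions open in 1 to 3 of the memory CD8+ lists by 1.49 ± 3.78 points. Single regions varied: 90 of the 280 gained regions were gained in more other pairs than they were lost in, 44 the reverse and 146 neither. For the 331 lost regions these numbers were 56, 61 and 214. The same split was not counted for the other regions open in 1 to 3 lists, so these numbers have no background beside them. The growth was not particular to changes shared by both animals. Regions changed in 1 animal and unchanged in the other were read likewise, a comparison added after the data were seen. The difference grew in 6 of 6 values of the same animal, by 3.75 ± 2.41 points (SD, exact sign-flip p = 0.0312, adjusted 0.156). Read in the other animal it grew in 4 of 6 values, by 1.87 ± 2.35 points.

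**Figure D3:**
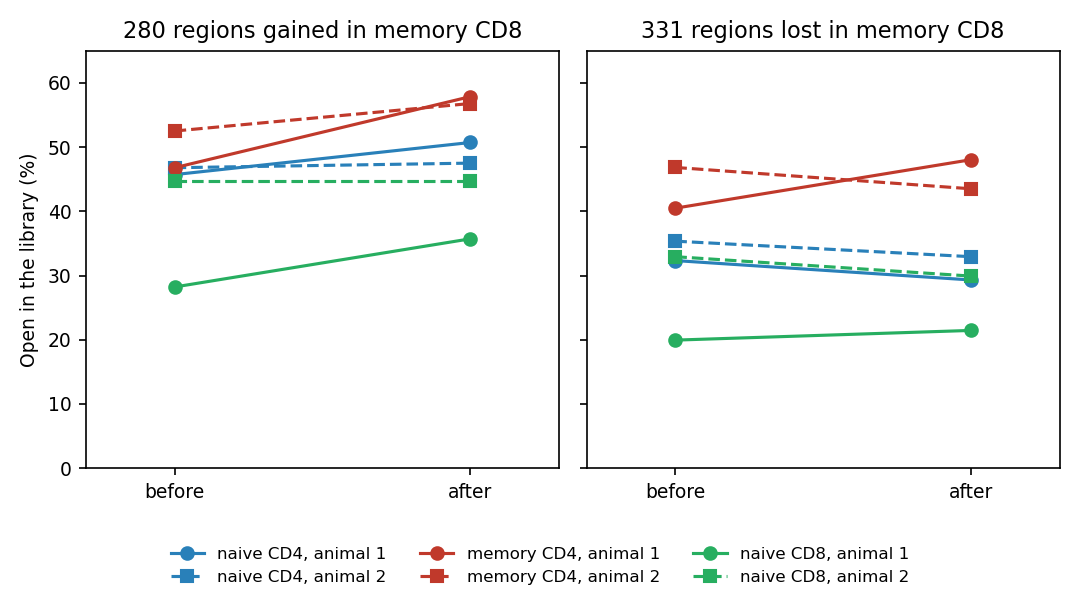
Share of the 280 regions gained (left) and the 331 regions lost (right) in memory CD8+ cells that were open in each library of the other populations (vertical axis, percent), with a line from before to after for each of the 6 pairs. Circles with solid lines are animal 1 and squares with dashed lines animal 2; the gained regions rise in 5 pairs and the lost regions fall in 4.

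The regions most often gained outside memory CD8+ cells were weak. On chromosome 3 at 175344915 to 175345367 the peak stood at the 0.883rd and 14.5th percentile after treatment, and 5 of the 6 other pairs gained it. Next came chromosome 2 at 54688608 to 54690313, with 16.4 and 5.66, and chromosome 1 at 205762091 to 205762711, with 8.43 and 2.57, each gained in 4 other pairs. No other pair lost any of these 3. Among lost regions, those on chromosome 16 at 7224680 to 7225448 (4.17 and 16.8 before) and chromosome 6 at 154540447 to 154540916 (16.3 and 2.95) were also lost in 3 other pairs. The region on chromosome 2 at 14748328 to 14749789 (27.8 and 23.7) was lost in 2. These regions were ranked by how many other pairs moved with them, so their counts are a description.

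At the 30796 regions open in all 4 lists, no shift in strength passed the test. Ranks were taken here among these regions only, so that each list ranked the same regions. The median absolute shift over treatment was 3.34 percentile points in animal 1 and 3.43 in animal 2. The animals differed from each other by 4.69 points before and 3.30 after treatment, so the shifts were of the size of the difference between animals. With limma, pairing by animal, 0 regions rose and 0 fell at an adjusted p of 0.05 (0% of 30796 each), and the smallest adjusted p was 0.446. Without adjustment, 825 regions (2.68% of those tested) had a p under 0.05, 311 of them higher and 514 lower after treatment. Ranks turned into normal scores gave 1 call.

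Few regions moved far in the same direction. Rises of at least 10 points in both animals were seen at 199 regions (0.646%) and falls at 316 (1.03%). Opposite shifts of that size were more frequent, with 615 regions rising in animal 1 and falling in animal 2 and 221 the other way. Over the 30796 regions, which share their libraries, the shifts of the animals had a Pearson correlation of -0.12. Strong regions moved less than weak ones: the median absolute shift was 5.59 and 5.39 points in animals 1 and 2 for a mean percentile up to 25, and 1.55 and 1.74 above 75. The top 1% of regions, 308 per list, shared 238 regions between the times in animal 1 and 244 in animal 2, and 207 were common to all 4 lists.

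**Figure D4:**
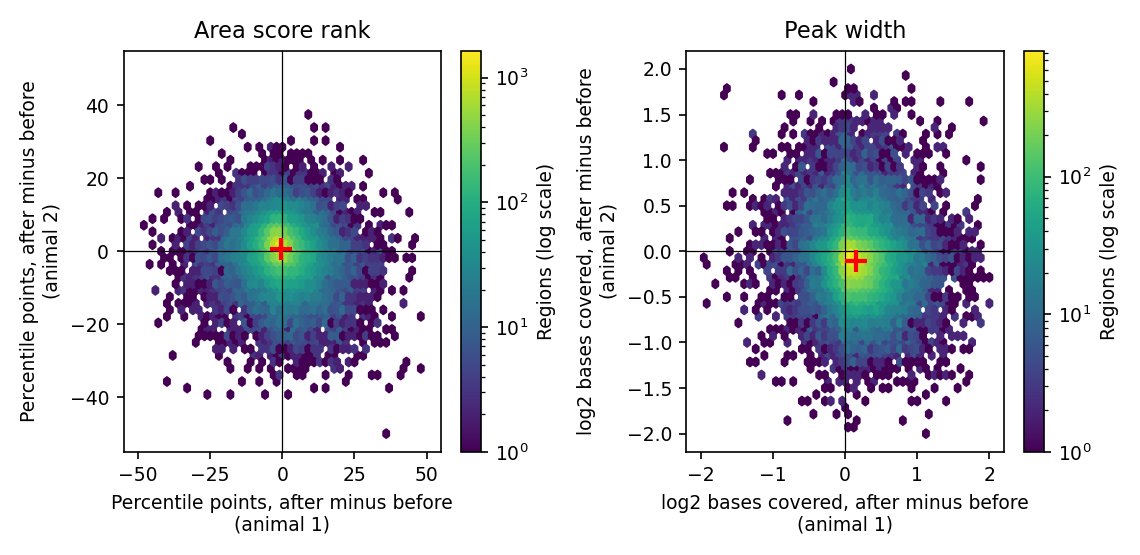
Change over treatment in animal 1 (horizontal axis) and animal 2 (vertical axis) at the 30796 regions open in all 4 memory CD8+ lists, for the rank of the area score in percentile points (left) and for bases covered in log2 units, not centred (right). Colour gives the number of regions on a log scale, the red cross marks the medians, and 7 and 40 regions lie outside the axes; the cloud of widths is centred at 0.15 in animal 1 and -0.11 in animal 2.

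The regions that rose most in both animals included 2 long stretches of which the list of animal 1 before treatment covered little. On chromosome 7 at 42190474 to 42210878 the percentiles were 18.6 and 55.3 before and 82.1 and 95.2 after in animals 1 and 2, a shift of 51.7 ± 16.7 points (SD, n = 2). Peaks covered 2719 bp of this region in animal 1 before treatment and 15503 to 16293 bp in the other 3 lists. Similarly, on chromosome 19 at 13406433 to 13412896 the values were 10.2 and 58.9 before and 80.9 and 89.7 after, with 2067 bp covered in animal 1 before and 6295 to 6410 bp elsewhere. The list of animal 1 before treatment was thus the low one in both, and the percentile is that of the strongest peak alone.

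The remaining 3 risers moved by like amounts in both animals. One was on chromosome 13 at 2559597 to 2564443, at 65.6 and 64.7 before and 87.8 and 88.2 after, a rise of 22.8 ± 0.875 points (SD, n = 2, limma adjusted p = 0.476). On chromosome X at 19551666 to 19557233 the values were 56.7 and 50.7 before and 80.1 and 73.8 after (23.2 ± 0.236 points, adjusted p = 0.880). On chromosome 7 at 37001634 to 37005330 they were 21.5 and 28.2 before and 50.5 and 52.8 after. All 3 were open in every library of the other populations. The times did not overlap at any of the 3, which were picked for large rises in both animals. Such picking favours separation, whose share over all regions was not counted. None passed adjustment over the 30796 regions.

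Of the 5 regions that fell most, 4 started between the 30.2nd and 49.4th percentile and ended below the 25th. On chromosome 7 at 26551003 to 26552352 the percentiles were 47.5 and 44.4 before and 6.98 and 8.76 after, a shift of -38.1 ± 3.49 points (SD, n = 2, limma adjusted p = 0.771). This region was open in 3 of 4 memory CD4+, 2 of 4 naive CD8+ and no naive CD4+ libraries, and 3 of the 6 other pairs lost it. The fall on chromosome 11 at 9945827 to 9950313 began higher, from 76.9 and 71.4 to 44.6 and 33.7, at a region open in all 12 other libraries. On chromosome 17 at 57419484 to 57420874 the values went from 41.3 and 30.2 to 3.90 and 1.37. On chromosome 1 at 146314879 to 146317334 they went from 49.4 and 47.8 to 24.2 and 8.25. The last of the 5, on chromosome 7 at 69689396 to 69691430, went from 44.6 and 46.2 to 13.9 and 21.5 and was open in 1 other library. The times did not overlap at any of these 5 regions, and none passed the test. Picking regions by their shift in both animals favours such separation, and its share over all regions was not counted.

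No joint movement of the rising and falling regions passed a test in the other populations at the threshold of 10 points with ranks among the regions compared. Among the 24333 regions open in all 16 lists, ranked in each, 60 rose and 92 fell by at least 10 points in both animals of memory CD8+ cells. In the 6 other pairs the risers exceeded the fallers by 0.874 ± 2.67 points (SD, n = 6), in 3 of 6 pairs. The two-sided p of the exact sign-flip test was 0.5, and 0.5 after adjustment over the 2 main readouts. At 5 points, with 503 risers and 579 fallers, the difference was 1.72 points with p = 0.0312 by the same exact test, unadjusted. With percentiles of the full lists at 10 points it was 2.94 points with the same p. The call thus depended on both the threshold and the scale. All 6 pairs came from the same 2 animals, and neither p was adjusted for the alternatives tried.

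Regions open in memory but not in naive cells of the other populations ranked lower after treatment in memory CD8+ cells of both animals, unevenly. A memory pattern was defined from the other populations, as open in all 4 memory CD4+ and none of the 8 naive libraries, and 472 such regions were open in all 4 memory CD8+ lists. Their median percentile was 32.5 before and 24.2 after in animal 1, and 22.6 before and 20.9 after in animal 2. Animal 1 before treatment stood apart from the other 3 lists, which lay between 20.9 and 24.2. The median shift was -5.69 points in animal 1 and -1.50 in animal 2, against -0.44 and 0.64 over all regions open in all 4 lists, of which 24333 were open in all 12 other libraries. In animal 2 the other classes not open in all 12 had negative medians too, of -3.19 points for regions open in none of the 12, -1.35 for the CD8 pattern described next and -1.29 for any other pattern, so the shift there was not particular to the memory pattern. In animal 1 the medians of these classes were 1.22, 5.19 and -0.33 points. Of the 472 regions 31 (6.57%) fell by at least 10 points in both animals and 7 (1.48%) rose, where the shares over all regions were 1.03% and 0.646%. At a mean percentile up to 25, where 250 of the 472 lay, 9.60% fell, against 2.25% of all regions of that strength. The pattern was chosen after the data had been seen, so it is given without a test.

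Detection of these regions was lower after treatment too, though not only of these. Of the regions with the memory pattern that were open in any memory CD8+ list, 809 in number, 14 (1.73%) were lost in both animals and 3 (0.371%) gained. Over all regions these shares were 0.761% and 0.644%. Another 18 of the 809 moved in opposite directions. The share lost was 2.24% for regions open in none of the 12 other libraries and 1.41% for any other pattern. It was 0.694% for the CD8 pattern and 0.155% for regions open in all 12. The loss was thus not particular to the memory pattern. The share of the 1353 memory regions of CD4+ cells that was open in memory CD8+ cells, given above, fell by 6.43 points in animal 1 and by 2.44 points in animal 2, and with lists of equal length the changes were -5.54 and -0.813 points. In animal 2 the open share of the naive regions of CD4+ cells changed by -2.32 points, about as much, and in animal 1 by 2.83 points. The regions of naive CD4+ cells missing from naive CD8+ cells changed by -3.40 and -0.916 points. When such regions were chosen in the CD4+ and naive libraries of 1 animal and read in memory CD8+ cells of the other, the median shift was -1.86 points in animal 2 (851 regions, 60.8% below 0, against 43.2% of all regions). In animal 1 it was -3.64 points (835 regions, 65.6% below 0, against 55.1%). Most of the regions compared with were open in all 12 other libraries. In animal 2 only 33.7% of regions open in none of the 12 shifted above 0. For the CD8 pattern it was 43.7% and for any other pattern 42.4%, so the fall there was not particular to memory regions. In animal 1 these shares were 55.0%, 75.2% and 48.0%. In memory CD4+ cells themselves the 472 regions shifted by a median of -0.253 points in animal 1 and -1.74 in animal 2.

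The other classes shifted less or in opposite directions in the animals. Regions with a CD8 pattern, open in all 4 naive CD8+ and none of the 8 CD4+ libraries, numbered 206 among those open in all 4 lists. Their median percentile went from 31.7 to 36.1 in animal 1 and from 35.3 to 32.8 in animal 2. The 944 regions open in all memory CD8+ lists and in no other library went from 15.7 to 16.8 in animal 1 and from 18.7 to 14.6 in animal 2. Of these, 22 (2.33%) rose and 39 (4.13%) fell by at least 10 points in both animals, against 0.646% and 1.03% of all regions. The 4841 regions of any other pattern ranked slightly lower after treatment in both animals, at 20.9 before and 19.9 after in animal 1 and at 21.5 and 18.6 in animal 2. Among them 2.89% fell and 1.03% rose by at least 10 points in both. The medians of these and of the 944 regions lay below 25. Over all regions with a mean percentile up to 25, 2.25% fell and 1.44% rose by that much. The 24333 regions open in all other libraries stayed between 59.4 and 59.7 in the 4 lists.

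**Figure D5:**
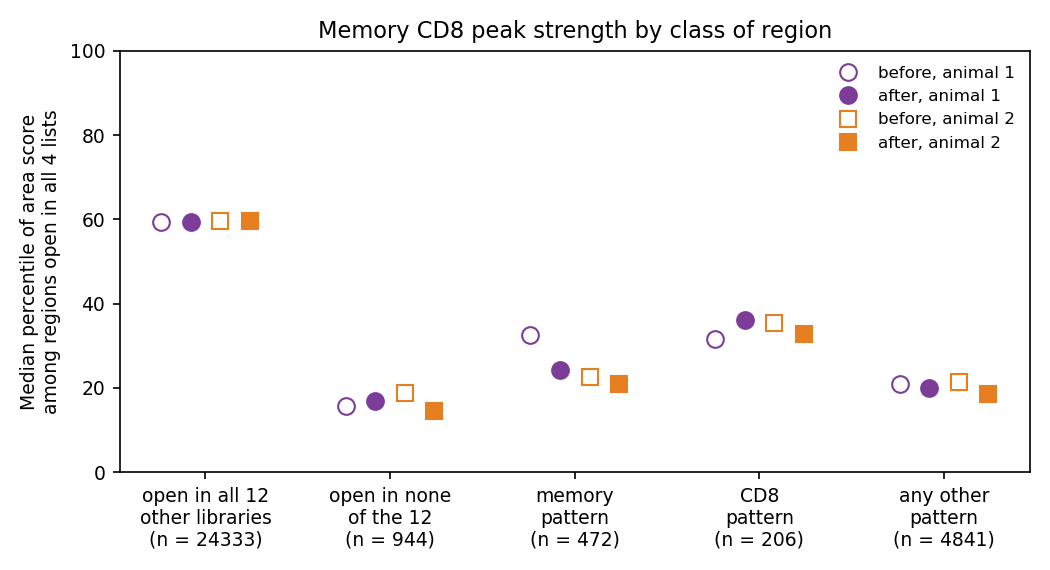
Median percentile of area score in each memory CD8+ list (vertical axis) for 5 classes of region defined by the other 12 libraries, among the 30796 regions open in all 4 lists. Open symbols are before and filled symbols after treatment, circles animal 1 and squares animal 2; the memory pattern lies at 32.5 in animal 1 before treatment and between 20.9 and 24.2 in the other lists.

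Peaks became wider in animal 1 and narrower in animal 2. Over the 30796 regions the median number of bases covered rose from 1303 to 1537 bp in animal 1 and fell from 1620 to 1406 bp in animal 2. The median log2 change was 0.15 and -0.11. The lists before treatment were the widest and the narrowest of the 4, with those after treatment between them. Above the 75th mean percentile 85.1% of regions were wider after treatment in animal 1 and 81.4% were narrower in animal 2. The median summit −log10 p of the lists moved the same way, from 4.56 to 4.69 in animal 1 and from 4.60 to 4.45 in animal 2. So did the share of regions split into several peaks, inversely, from 9.58% to 7.12% and from 7.59% to 9.48%. The part of these in the widths was not tested.

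Once the width of each list was centred on its median, 159 regions passed the paired limma test at an adjusted p of 0.05, 40 narrower after treatment (0.130% of 30796) and the rest wider (0.386%). The paired fit took the variance of each region from the trend over all regions alone, with infinite prior degrees of freedom. Its SE and p therefore do not reflect how far the animals differed at a region. Not all regions that passed moved the same way in both animals. In this paired fit 1509 regions (4.9% of those tested) had an unadjusted p under 0.05. None passed without pairing by animal, where 764 had an unadjusted p under 0.05, and none passed with widths left uncentred, where 895 did. Without 1 of the 4 lists at a time the count, unpaired, ran from 29 (without animal 1 before) to 334 (without animal 2 before), and it was 71 and 45 without the lists of animals 1 and 2 after treatment. Of the 159, 144 (90.6%) moved the same way in both animals, against 42.0% of all regions open in all 4. The calls rest on the mean change of these same 2 animals, which favours such agreement, so it is no separate evidence. Of the 159, 100 (62.9%) were split into several peaks in at least 1 list, against 15.5% of all regions open in all 4. By size alone, 294 regions widened (0.955%) and 142 narrowed (0.461%) by at least 0.5 log2 units in both animals, while 249 widened in animal 1 and narrowed in animal 2 and 439 the other way.

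The regions that widened most in both animals had short peaks before treatment, of 233 to 645 bp in all. On chromosome 18 at 33577608 to 33579527 peaks covered 492 and 418 bp before and 1894 and 1133 bp after in animals 1 and 2, a centred log2 change of 1.67 ± 0.30 (SE, limma adjusted p = 3.36e-05). On chromosome 3 at 91812591 to 91813937 the bases went from 310 and 324 to 999 and 1031, and all 12 other libraries were open there. On chromosome 2 they went from 391 and 570 to 1232 and 1116 at 161103754 to 161105084, and from 607 and 297 to 1603 and 720 at 120102857 to 120104459. The values on chromosome 9 at 126930953 to 126932793 overlapped between the times, with 645 and 233 bp before and 1841 and 593 bp after. Of these 5 all passed the paired test, and none passed without pairing by animal. In the 4 besides that on chromosome 9, both lists after treatment exceeded both before. Being picked by the change in both animals favours such separation, and its share over all regions was not counted.

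Narrowing regions showed the reverse. On chromosome 12 at 31506883 to 31509119, open in no other library, peaks covered 1640 and 2237 bp before and 719 and 891 bp after, a centred log2 change of -1.28 ± 0.23 (SE, limma adjusted p = 4.34e-05). Its percentile was lower after treatment as well, at 1.86 and 4.43 in animals 1 and 2, shifts of -18.1 and -38.8 points. On chromosome 2 at 163681251 to 163686143 the bases went from 1192 and 2490 to 616 and 915. A region on chromosome 16 at 65736481 to 65737657, also seen only in memory CD8+ cells, went from 1066 and 1177 to 484 and 458 bp. On chromosome 4 at 131793410 to 131796502 they went from 1176 and 1517 to 650 and 640. The fifth, on chromosome 20 at 66335271 to 66336758, went from 466 and 1194 to 256 and 439 bp and did not pass (limma adjusted p = 0.448). Without pairing by animal none of the 5 passed. At all 5 regions both lists after treatment lay below both before, which the way they were picked favours here too. The share of all regions separated in this way was not counted. Percentile and centred width shifted together over the regions, with a Pearson correlation of 0.55 in animal 1 and 0.42 in animal 2, as both measures come from the same peaks.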

How the data were processed

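ATAC-seq peak lists of 16 libraries were used, 1 per library, so peaks had been called without pooling. The submitters' processing notes name cutadapt 1.18, Bowtie2 2.3.4.1, Genrich 0.6 and the build rheMac10; for settings, duplicate removal and any shift of reads: not given in the sources used here. Each deposited list holds, per peak, a score for the area under it, set by the authors' caller with a floor of 200, and the summit −log10 p as deposited by the authors, without a q value. Both belong to their own list and were used only to rank or filter within it. Read counts were not used here, so depth is unknown and its precision cannot be stated.

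Peaks sharing 1 bp in any of the 16 lists were merged. Where a region held several peaks, its percentile is that of the strongest and its width the bases covered. At regions open in all 4 memory CD8+ lists, limma 3.58.1 (R 4.3.3) with an intensity trend tested rank percentiles and log2 widths centred on the list median, with animal as a block and Benjamini-Hochberg adjustment over all these regions (threshold 0.05, 1 residual degree of freedom). The paired fit was chosen because the titles name the same 2 animals at both times; file names number animal 2 differently for each population but alike at both times within one, so before-after pairs hold either way. Deviations of the animals before and after correlated at 0.33 for percentiles and 0.14 for widths. Whether libraries of 1 group differ by more than technical spread cannot be told with 1 library per animal. Readouts in the other populations used exact sign-flip tests over 6 pairs. limma's fit of percentiles was tested on simulated data, with larger shifts than most of those named here. The fit of widths was not tested in this way, and its variance came from the trend over regions alone. Python 3.11.15, numpy 2.4.6, pandas 2.3.3, scipy 1.17.1 and matplotlib 3.10.9 were used.

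Regions named were the 5 strongest gained and lost, the 3 of each moving with most other pairs, the 5 rising, falling, widening and narrowing most by the smaller change of the 2 animals, and the largest groups joined at 50 kb. Members, lists and rules were chosen with earlier results of these data known. The memory and CD8 patterns and their alternatives were added after the data were examined. Alternatives were lists of equal length (39426 peaks, or 36307 over all 16 lists), a stricter threshold (summit −log10 p of 3.42), 50% coverage of a region, 500 bp windows around summits, regions merged from the 4 lists, autosomes only, other scales, and each library or animal left out. Genes, marker genes and sequences at the regions were not analysed here: the reference gene table belongs to a different assembly.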

Additional observations from a re-analysis of the deposited data

How the results depend on the processing

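Counts of regions gained or lost in both animals depended on what counted as open. Gained regions numbered 132 at the stricter threshold, 605 with 50% coverage and 659 with 500 bp windows around summits, and lost regions 646 with those windows. Requiring the open side to reach the 25th percentile left 1 gained, 3 lost and 7 opposite regions, and opposite regions numbered 1228 with 50% coverage and 1882 with summit windows. Leaving out a library or an animal, which removes a condition and so raises the count by construction, gave 927 to 3078 gained and 801 to 3721 lost. Rises in both animals numbered 1068 at 5 points and 9 at 20 points, and falls 1169 and 22. Falls numbered 508 with percentiles of the full lists, and with 1 animal left out rises were 1601 to 2698 and falls 2228 to 2403. The percentile test called 1 region with normal scores and 0 in its other 12 alternatives, among them the fit without the replicate block. Fits that leave out 1 library leave a lone sample, assumed to vary like the pair at the other time, and say little about stability. The width test, with 159 calls, gave 0 without the replicate block, 0 with widths not centred and 1 with 50% coverage. With 1 library left out it gave 29 to 334. Of the 159 called regions, 158 were covered under 50% in at least 1 list, against 21.0% of all regions open in all 4. The setting with 50% coverage left these 158 out, so it could not retest them. The other alternatives of the width test stayed within 203 calls, the fewest with regions merged from the 4 lists alone. The gained-minus-lost readout stayed positive in all 11 alternatives, at 4.65 to 5.65 points with 1 pair left out, 5.84 in animal 1 alone and 4.59 in animal 2 alone, where fewer pairs cannot reach 0.05. The riser-minus-faller readout was 2.94 points with full-list percentiles and 1.72 at 5 points (p = 0.0312 for each by the exact sign-flip test), -0.787 at 20 points and -0.0728 in animal 1 alone; with 1 pair left out it ran from 0.180 to 1.46. The cause of these changes was not tested. Median width changes kept their sign in each animal in all 4 alternatives. Falling memory-pattern regions numbered 52 with full-list percentiles, 30 with summed area scores, 77 at 5 points and 2 at 20 points. The memory regions of CD4+ cells fell by 7.76 and 11.3 points at the stricter threshold. With unknown depth, peaks below the 25th percentile, where most gains and losses lay, are the least certain.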
